A study of Mus musculus with 20 samples.

Results

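The genes described are those of the contractile apparatus of heart muscle and of the structures that anchor it: the thin and thick filaments of the sarcomere, titin and the M band, the Z disc, the intermediate filament around it, and the costamere that ties it to the cell membrane. A list of 38 such genes was matched to transcript clusters whose platform annotation gives exactly 1 gene symbol. In all, 36 genes were found, each represented by its brightest cluster, of 34760 clusters on the array. Myopn, a synonym of the listed gene Mypn, and Murc were not matched under these symbols. Left ventricles came from male C57BL/6 mice aged 2 months, 1 array per mouse, in 4 groups. FA-DOXO mice (n = 6) received folic acid (FA) at 10 mg/d and a single intraperitoneal injection of doxorubicin (DOXO) at 20 mg/kg. DOXO mice (n = 6) received placebo and the same injection. FA-sham mice (n = 4) received FA and saline, and sham mice (n = 4) placebo and saline. FA or placebo started 7 days before DOXO or saline and went on to the end of the experiment at 10 days. Doxorubicin is an anthracycline used against cancer that damages heart muscle, and FA was tested as a protective supplement. Signals are log2 values per transcript cluster of an Affymetrix Mouse Gene 1.0 ST array.

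In the sarcomere, myosin of the thick filaments pulls on actin of the thin filaments when calcium binds troponin. The giant protein titin runs from the Z disc, where thin filaments of adjoining sarcomeres are crosslinked, to the M band, where thick filaments are held together. Desmin filaments link Z discs to each other and to the membrane, and dystrophin with its partners passes force through the membrane to the matrix. Loss of sarcomere structure is a known feature of anthracycline cardiomyopathy. In whole ventricle, fewer muscle cells and less RNA per muscle cell cannot be told apart.

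The promoters of 4 of the genes on which the results below turn are shown, since transcripts are measured and these are the windows just around their starts. They are Des (desmin, chr1:75360042-75360341, plus strand), Actn2 (sarcomeric alpha-actinin, chr13:12340683-12340982, minus strand), Ankrd1 (a cardiac ankyrin repeat protein, chr19:36119795-36120094, minus strand) and Fhl1 (a LIM domain protein, chrX:56779433-56779732, plus strand, the start that holds a CArG box of 2 listed). Each window runs from 250 bases before to 50 bases after the start, 5′ to 3′, from RefSeq on build GRCm38.p6. Capitals mark matches on either strand to the CArG box of serum response factor, to the MEF2 site, to CATTCC, the core of the M-CAT element, and to CANNTG, the E box.
Des: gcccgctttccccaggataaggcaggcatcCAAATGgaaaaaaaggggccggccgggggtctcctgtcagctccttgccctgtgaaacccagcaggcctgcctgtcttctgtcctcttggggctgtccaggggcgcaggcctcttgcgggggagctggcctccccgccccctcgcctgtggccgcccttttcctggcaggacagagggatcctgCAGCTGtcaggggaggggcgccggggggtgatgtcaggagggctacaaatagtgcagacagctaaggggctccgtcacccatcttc
Actn2: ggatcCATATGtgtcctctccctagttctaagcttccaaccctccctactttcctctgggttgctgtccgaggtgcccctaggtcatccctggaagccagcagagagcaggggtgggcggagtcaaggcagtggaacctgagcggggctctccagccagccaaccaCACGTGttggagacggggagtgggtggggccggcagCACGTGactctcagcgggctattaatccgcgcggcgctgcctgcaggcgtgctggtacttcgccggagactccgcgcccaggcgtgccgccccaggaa
Ankrd1: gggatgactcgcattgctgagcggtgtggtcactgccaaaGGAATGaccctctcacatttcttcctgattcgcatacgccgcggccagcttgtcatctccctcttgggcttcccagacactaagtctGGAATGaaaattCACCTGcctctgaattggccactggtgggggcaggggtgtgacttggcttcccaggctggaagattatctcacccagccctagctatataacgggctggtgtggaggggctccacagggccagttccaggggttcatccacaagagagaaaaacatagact
Fhl1: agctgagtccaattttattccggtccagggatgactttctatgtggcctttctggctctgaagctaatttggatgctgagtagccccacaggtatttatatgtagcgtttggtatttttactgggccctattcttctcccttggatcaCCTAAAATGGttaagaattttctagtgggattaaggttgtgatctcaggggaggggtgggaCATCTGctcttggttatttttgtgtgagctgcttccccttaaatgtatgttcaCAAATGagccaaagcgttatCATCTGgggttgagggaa
Ankrd1 held 2 matches to CATTCC and 1 to CANNTG, Fhl1 held 1 CArG box and 3 matches to CANNTG, and Des and Actn2 held 2 and 3 matches to CANNTG. Of the 36 genes, 29 had a window. A CArG box stood in 6 of them (20.7%; Myom1, Ldb3, Nebl, Fhl1, Fhl2 and Dmd), against 1.81% of the 27025 genes in the table. A MEF2 site stood in 7 (24.1%), against 3.7% of all genes. CATTCC stood in 9 (31%), against 16.6%, and CANNTG in 25 (86.2%), against 75%. A match is a run of letters and not a measured binding site.

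The arrays differed in how widely their signals spread, and the muscle genes followed this. The SD of all log2 signals of an array, here called array SD, lay between 0.863 and 1.50, and array medians lay between 6.23 and 6.66. With 1.1 as the border, 8 arrays were wide and 12 narrow: FA-DOXO held 2 wide arrays of 6, DOXO 2 of 6, FA-sham 1 of 4 and sham 3 of 4. Array SD averaged 1.04 in FA-DOXO, 1.13 in DOXO, 0.957 in FA-sham and 1.27 in sham mice. In a fit with 1 mean per group and array SD as a covariate (limma, Benjamini-Hochberg adjustment over all clusters), the slope on array SD passed an adjusted p of 0.05 for 35 of the 36 genes. So did 81.7% of all clusters. Of the 36 genes, 33 were higher on wider arrays, against 29.8% of all clusters. The median slope was 5.95 log2 units per unit of array SD, against -0.53 over all clusters. Des had the steepest slope of the 36, 9.96, followed by Ankrd1 at 9.74 and Actn2 at 9.53. The comparisons below are therefore given from the fit with array SD, with differences from the fit without this covariate beside them. What made the arrays differ in spread was not tested.

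**Figure D1:**
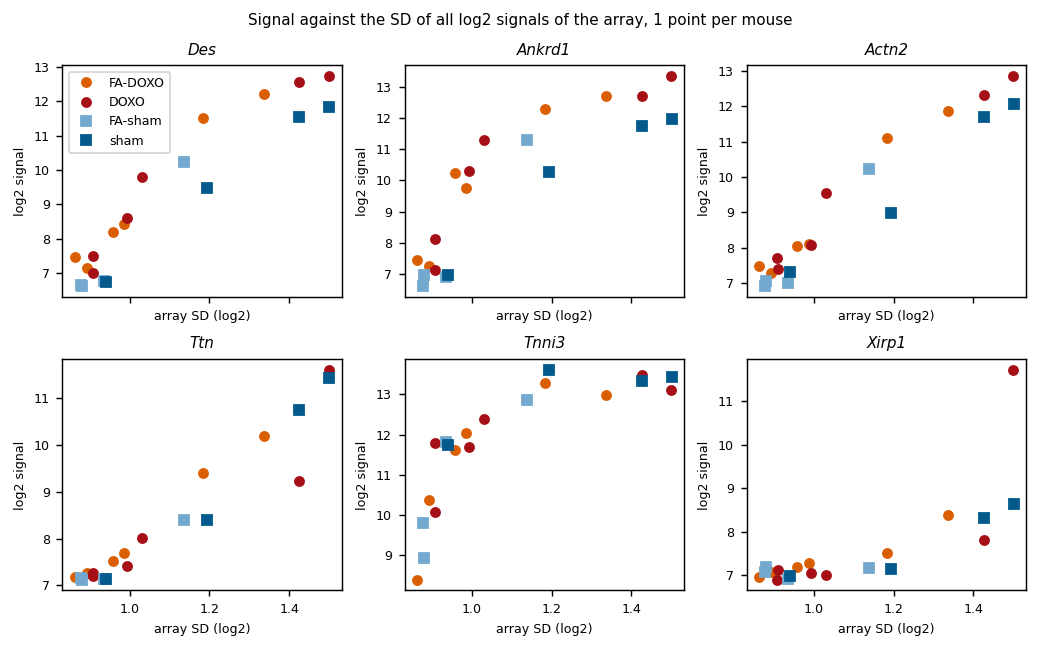
Log2 signal of 6 genes (vertical) against the array SD (horizontal), 1 point per mouse, circles for mice given doxorubicin and squares for the others. Des, Ankrd1 and Actn2 climb steeply and the doxorubicin points lie above the sham points of like array SD. Tnni3 reads 12.38 at an array SD of 1.03 and lies between 12.85 and 13.61 on the wide arrays. Xirp1 stays near 7 on all narrow arrays and reaches 11.73 in 1 DOXO mouse.

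The genes did not follow array SD in 1 shape. Over the 12 narrow arrays the cardiac thin filament genes already varied widely, with an SD of 1.37 for Tnnt2 (cardiac troponin T, which anchors the troponin complex), 1.33 for Tnni3 (cardiac troponin I, the inhibitory subunit), 1.24 for Tnnc1 (the calcium-binding subunit) and 1.32 for Tpm1 (tropomyosin). Over the 8 wide arrays their SDs were 0.303, 0.257, 0.371 and 0.350. Thick filament, titin and M band genes showed the reverse. Their SDs lay between 0.273 and 0.520 over narrow arrays and between 1.27 and 1.44 over wide arrays. The spread was larger on narrow than on wide arrays for 11 of the 36 genes: 4 of 6 thin filament genes, 5 of 14 Z disc genes, 1 of 3 of the desmin group, 1 of 4 of the ankyrin repeat and Xin group, and none of the 4 thick filament or 5 costamere genes. The groups are mixed in these SDs. A straight line on array SD cannot follow both shapes, so a fit with array SD and its square was added after the data were seen, and its values are given where it changes a call of 1 of the 36 genes. At the unadjusted 0.01 it called 6 genes for DOXO against sham, 8 over both diets, 0 for FA-DOXO against DOXO, 1 for FA-DOXO against FA-sham, 4 for FA-sham against sham and 1 for the interaction. Of all 34760 clusters it called 1837, 1350, 473, 481, 913 and 748 in the same order. It thus also called more of all clusters than the fit with array SD alone, which called 1440 for DOXO against sham.

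Tnni1, Tpm2 and Ankrd2, the members best known from slow or other skeletal muscle, stood apart. They were never more than 0.434, 0.394 and 0.363 above the median of the array. The slope was -0.92 for Tnni1 and -0.91 for Ankrd2, and that of Tpm2, 0.09, did not pass (adjusted p = 0.541, limma). The 33 other genes, among them the cardiac troponins that define heart muscle, lay at least 1 log2 unit above the array median in some mouse, and Tnnt2 reached 7.69 above it. In a list of 10 skeletal muscle markers, the mean signal of an array lay between 6.51 and 6.79 in FA-DOXO, 6.52 and 6.79 in DOXO, 6.64 and 6.88 in FA-sham and 6.38 and 6.88 in sham mice, near the array medians.

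Doxorubicin alone was set against placebo and saline to ask what the drug does to these genes. In DOXO mice 4 of 36 genes were higher than in sham mice at the study's unadjusted p of 0.01 and none lower, where 4.14% of all clusters passed and 3.14% were higher. They were Fhl1, Myot, Des and Actn2. None passed an adjusted p of 0.05, which 59 clusters (0.17%) did. At an unadjusted p of 0.05 the count was 8 genes, where 12.7% of all clusters passed. The difference lay above 0 for 26 genes (60.9% of all clusters), with a median of 0.22 on the log2 scale, against 0.04 over all clusters. Without the covariate no gene passed 0.01 or 0.05, where 1.05% and 5.73% of all clusters did, 7 genes lay above 0 (62% of all clusters) and the median was -0.44. The median with the covariate was 0.14 without DOXO replicate 5 and 0.35 without DOXO replicate 1. No gene had values that did not overlap between DOXO and sham mice, as 0.351% of all clusters had, nor in any other comparison. There the shares of all clusters were 0.135% for FA-DOXO and DOXO, 0.808% for FA-DOXO and FA-sham, 4.81% for FA-sham and sham, and 0.023% for both doxorubicin groups and both sham groups.

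Over both diets, the mean of DOXO minus sham and FA-DOXO minus FA-sham, 6 genes were higher under doxorubicin at the unadjusted p of 0.01 and none lower, where 2.01% of all clusters were higher. To the 4 above were added Myom2 and Ankrd1. None passed the adjusted p, which 79 clusters (0.227%) did. The difference lay above 0 for 32 of 36 genes (56% of all clusters), with a median of 0.20, against 0.01 over all clusters. Without the covariate no gene passed 0.01 (0.506% of all clusters), 22 lay above 0 (59.5% of all clusters) and the median was 0.03. Both comparisons share the DOXO and sham mice.

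**Figure D2:**
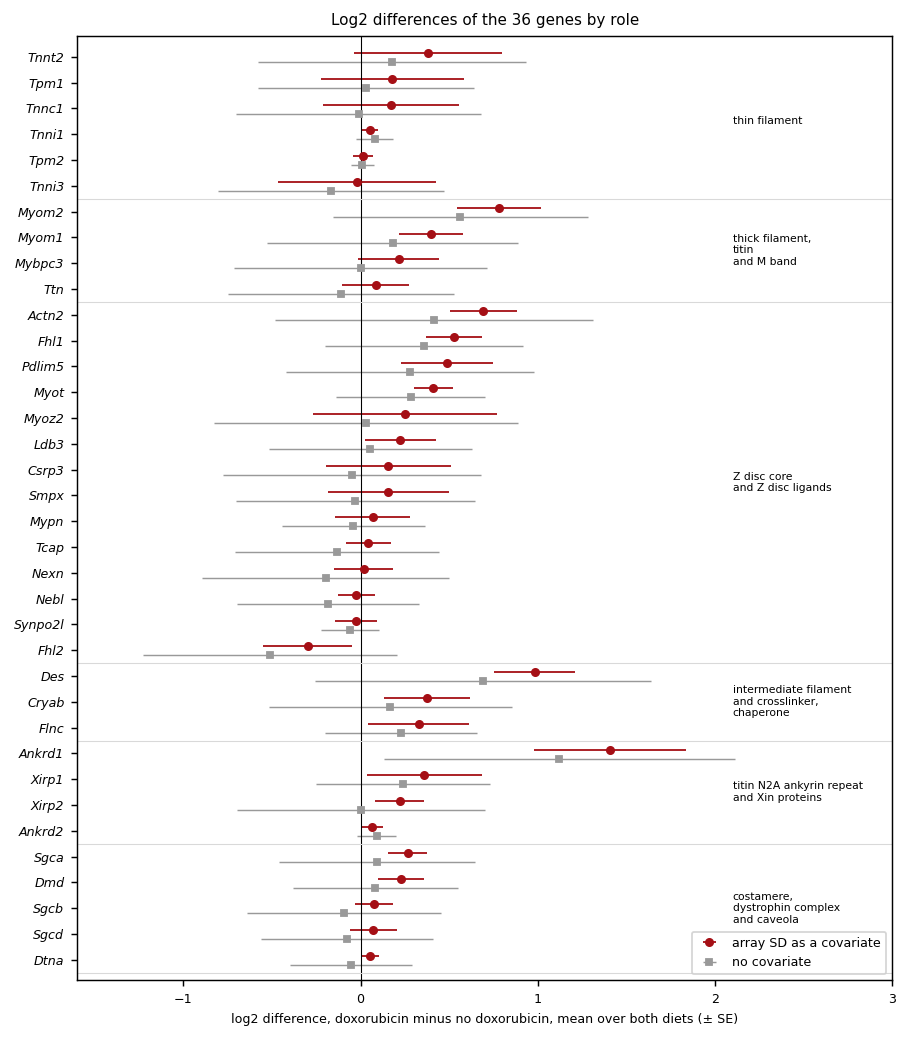
Log2 difference of each of the 36 genes, doxorubicin minus no doxorubicin averaged over both diets (horizontal, bars show SE), grouped by role (vertical). Red circles are from the fit with array SD and grey squares from the fit without a covariate, whose SEs are wider for most genes. Ankrd1 at 1.41 and Des at 0.98 lie farthest to the right, and Fhl2 at -0.30 farthest to the left.

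Des encodes desmin, the intermediate filament of muscle. Its signal lay between 7.15 and 12.20 in FA-DOXO mice (median 8.32) and between 7.01 and 12.73 in DOXO mice (median 9.19), against 6.63, 6.79, 6.66 and 10.23 in FA-sham mice and 9.49, 11.84, 11.54 and 6.74 in sham mice. High and low values lay in every group, and the groups overlapped. With array SD the difference was 1.17 (SE 0.33, adjusted p = 0.157) for DOXO against sham and 0.98 (SE 0.23, adjusted p = 0.101) over both diets. Without the covariate these were -0.21 and 0.69. Within wide arrays DOXO exceeded sham by 1.69, and within narrow arrays by 1.48 against the 1 narrow sham array. Array SD still differed within these classes. Wide DOXO arrays had 1.43 and 1.50, and wide sham arrays 1.19, 1.43 and 1.50. Narrow DOXO arrays had 0.907 to 1.03, and the narrow sham array 0.941. Array spread thus also enters the differences within wide or narrow arrays, here and for the genes below. With array SD and its square the differences were 1.21 (adjusted p = 0.0221) and 0.95 (adjusted p = 0.0114), past the adjusted threshold in both, as were 0.498% and 0.564% of all clusters.

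Actn2 encodes the alpha-actinin that crosslinks thin filaments in the Z disc. It lay between 7.27 and 11.88 in FA-DOXO mice (median 8.08) and between 7.40 and 12.87 in DOXO mice (median 8.81), against 7.05, 7.01, 6.91 and 10.23 in FA-sham mice and 8.98, 12.06, 11.70 and 7.30 in sham mice. The 4 highest sham-group values, like the highest doxorubicin values, were on wide arrays. The difference was 0.96 (SE 0.27, adjusted p = 0.157) for DOXO against sham, and -0.36 without the covariate. Over both diets it was 0.69 (SE 0.19, adjusted p = 0.192), and 0.41 without the covariate. Within wide arrays DOXO exceeded sham by 1.68 and within narrow arrays by 0.88. The call for DOXO against sham was lost without sham replicate 1, at a difference of 0.84.

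Ankrd1 encodes the cardiac ankyrin repeat protein, which binds titin in the I band and also acts in the nucleus. Its signal lay between 7.26 and 12.70 in FA-DOXO mice (median 10.00) and between 7.15 and 13.34 in DOXO mice (median 10.80), against 6.99, 6.91, 6.62 and 11.28 in FA-sham mice and 10.26, 11.95, 11.73 and 6.99 in sham mice. Of the narrow arrays, 3 doxorubicin arrays read above 10, which no narrow sham or FA-sham array did, but their array SD of 0.958 to 1.03 was wider than that of any narrow sham-group array, at most 0.941. The difference was 1.59 (SE 0.62, adjusted p = 0.289) for DOXO against sham, which missed the unadjusted 0.01, and 1.41 (SE 0.43, adjusted p = 0.255) over both diets, the largest of the 36 in both. Without the covariate these were 0.25 and 1.12. Within narrow arrays DOXO exceeded sham by 2.23 and within wide arrays by 1.70. With the square of array SD the difference was 1.68 (adjusted p = 0.0596) for DOXO against sham, where it then passed the unadjusted 0.01, and 1.34 (adjusted p = 0.0281) over both diets. The call over both diets was lost without sham replicate 2 (1.31), FA-sham replicate 2 (1.27) or FA-sham replicate 3 (1.31). Ankrd2, its relative of skeletal muscle, gave 0.06 (SE 0.06) over both diets, and 0.09 without the covariate.

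Fhl1 encodes a four-and-a-half LIM domain protein that binds titin and is known to rise in hypertrophy. It lay between 6.97 and 9.51 in FA-DOXO mice (median 7.53) and between 6.89 and 11.62 in DOXO mice (median 7.85), against 7.03, 6.77, 7.36 and 8.34 in FA-sham mice and 7.63, 9.51, 9.08 and 6.86 in sham mice. The highest value, 11.62, was that of DOXO replicate 5. The difference for DOXO against sham was 1.06 (SE 0.23, adjusted p = 0.0693), and 0.73 (adjusted p = 0.125) without DOXO replicate 5. It was 0.26 with no covariate, and with the square it was 1.05 (adjusted p = 0.0392). Within wide arrays DOXO exceeded sham by 2.00 and within narrow arrays by 0.57. Over both diets the difference was 0.53 (SE 0.16, adjusted p = 0.246), and 0.36 without the covariate, a call lost without FA-sham replicate 2 (0.45).

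Myot encodes myotilin, a Z disc protein that binds alpha-actinin and filamin. It lay between 6.74 and 9.03 in FA-DOXO mice (median 7.29) and between 6.76 and 9.89 in DOXO mice (median 7.34), against 6.64, 6.83, 6.88 and 7.92 in FA-sham mice and 7.53, 8.60, 8.21 and 6.95 in sham mice. The 2 wide DOXO arrays were above every sham array, and the narrow ones overlapped with sham. The difference was 0.66 (SE 0.16, adjusted p = 0.0984) for DOXO against sham, and 0.05 without the covariate. Over both diets it was 0.41 (SE 0.11, adjusted p = 0.179), and 0.28 without. Within wide arrays DOXO exceeded sham by 1.37 and within narrow arrays by 0.13.

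Myom2 encodes M-protein, a crosslinker of the M band. It lay between 6.99 and 11.16 in FA-DOXO mice (median 7.52) and between 6.99 and 11.88 in DOXO mice (median 7.92), against 6.90, 6.61, 6.81 and 8.10 in FA-sham mice and 7.68, 10.66, 10.03 and 6.75 in sham mice. Each narrow doxorubicin array read above the narrow sham array and above every narrow FA-sham array. The difference over both diets was 0.78 (SE 0.24, adjusted p = 0.255), and 0.56 without the covariate. It was lost without sham replicate 1 (0.68) or FA-sham replicate 2 (0.72). For DOXO against sham it was 0.83 (SE 0.34, adjusted p = 0.322), and -0.19 without the covariate.

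**Figure D3:**
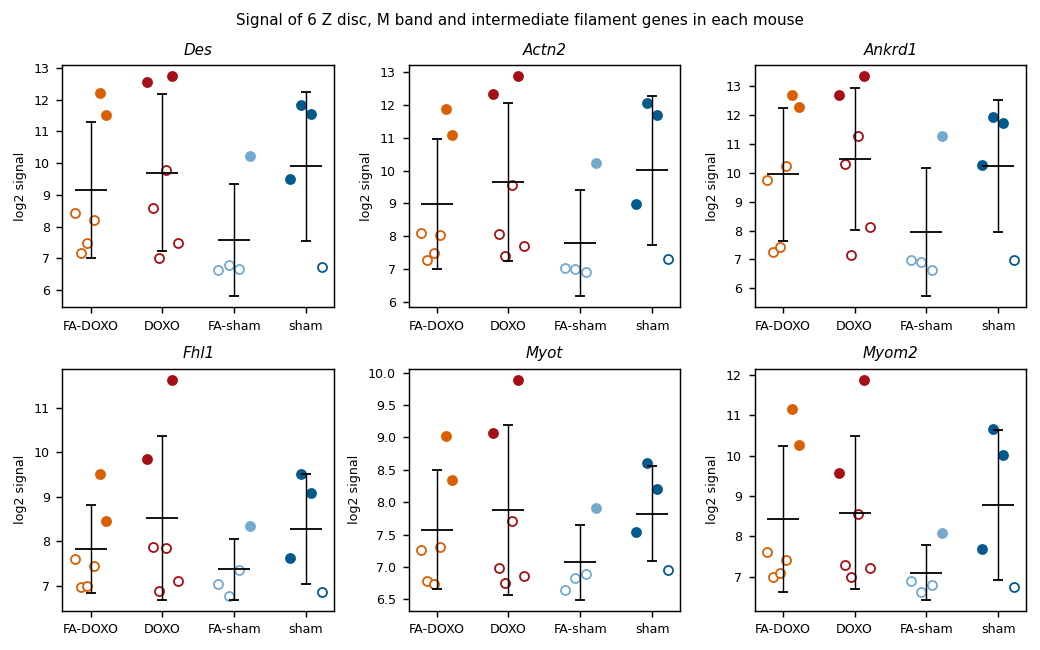
Log2 signal (vertical) of the 6 genes called over both diets, 1 point per mouse in FA-DOXO, DOXO, FA-sham and sham mice (horizontal), filled for wide and open for narrow arrays, with group mean and SD as black bars. Wide arrays carry the high values in each group, so the groups overlap, with the lowest open points in the sham groups for Des.

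To see the genes without a fitted slope, each of the 12 doxorubicin arrays was set against the sham or FA-sham array nearest to it in array SD, which used 7 of the 8 such arrays, with gaps in array SD of up to 0.0898. In 6 of the 12 the doxorubicin array was the wider, all of them narrow arrays. In the 4 wide pairs it was the narrower. This pairing was added after the data were seen and has no test. Sham replicate 4 was the nearest array for DOXO replicates 2 and 4 and for FA-DOXO replicates 1 and 4. The 12 pairs are thus not separate comparisons. Diet was not matched either, as in DOXO replicate 3 against FA-sham replicate 2. Des, Actn2 and Ankrd1 were higher in 12 of 12, which held for 0.36% of all clusters, and no gene of the 36 was lower in all. The median of these differences was 0.96 for Des, 0.70 for Actn2 and 1.27 for Ankrd1. These 3 genes have the steepest slopes of the 36, so the gaps left in array SD weigh more on them than on most clusters. In the 4 wide pairs Des was higher by 0.67 to 2.01, Actn2 by 0.18 to 2.12 and Ankrd1 by 0.95 to 2.02. Myom2 was higher in 11 of 12 (median 0.60), and Fhl1, Myot and Pdlim5 in 10 of 12 (medians 0.67, 0.34 and 0.57). Ttn, Tcap, Myom1 and Csrp3 were also higher in 10 of 12, with smaller medians of 0.16 to 0.33. Fhl2, a LIM domain relative of Fhl1, was lower in all 4 wide pairs, by 0.24 to 0.88, and higher in 6 of 12 overall. The wide pairs did not resemble each other over the list. DOXO replicate 5 against sham replicate 2 had 26 of 36 genes higher and FA-DOXO replicate 6 against sham replicate 1 had 29. DOXO replicate 1 and FA-DOXO replicate 5, both against sham replicate 3, had 17 and 12.

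**Figure D4:**
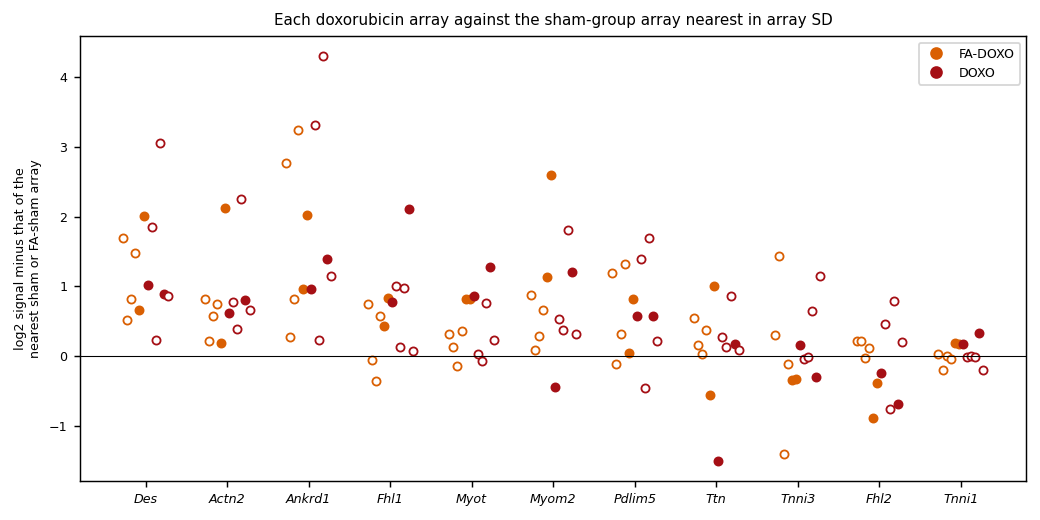
Log2 signal of each FA-DOXO and DOXO array minus that of the sham or FA-sham array nearest in array SD (vertical) for 11 genes (horizontal), filled for wide and open for narrow doxorubicin arrays. All 12 points lie above 0 for Des, Actn2 and Ankrd1, and points lie on both sides of 0 for the other 8 genes.

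Among the thin filament genes none of 6 was called in either comparison. Of all clusters 4.14% were called for DOXO against sham, and over both diets 2.01% were higher and 0.814% lower. Their median for DOXO against sham was -0.03, with 2 above 0 (60.9% of all clusters). Without the covariate it was -0.82, with 1 above 0 (62% of all clusters). Over both diets it was 0.11, and 0.02 without the covariate. Tnni3 read 8.38 to 13.28 in FA-DOXO mice (median 11.83) and 10.08 to 13.48 in DOXO mice (median 12.09), against 8.94, 11.81, 9.80 and 12.85 in FA-sham mice and 13.61, 13.42, 13.32 and 11.73 in sham mice. Its difference over both diets was -0.02 with an SE of 0.44. A change of the size of this SE, or a larger one still short of the threshold, could not be told from none. Without the covariate it was -0.17. Tnnt2 gave 0.38 (SE 0.42), Tpm1 0.18 (SE 0.40) and Tnnc1 0.17 (SE 0.39), and without the covariate 0.18, 0.03 and -0.012.

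Of the thick filament, titin and M band genes only Myom2 was called over both diets, 1 of 4, where 2.01% of all clusters were higher. The median for DOXO against sham was 0.37, and -0.65 without the covariate. Ttn, which encodes titin, read 7.18 to 10.18 in FA-DOXO mice (median 7.61) and 7.20 to 11.60 in DOXO mice (median 7.71), against 7.11, 7.13, 7.15 and 8.40 in FA-sham mice and 8.39, 11.44, 10.74 and 7.15 in sham mice. On narrow arrays it lay within 1.43 of the array median. Its difference over both diets was 0.08 (SE 0.19), and -0.11 without the covariate. Mybpc3, the cardiac myosin-binding protein C that tunes crossbridges, gave 0.22 (SE 0.23), and Myom1, myomesin, gave 0.40 (SE 0.18, adjusted p = 0.555). Without the covariate they gave 0.00089 and 0.18.

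Of the 14 Z disc genes 3 were called over both diets (Actn2, Fhl1 and Myot), all higher, where 2.01% of all clusters were higher. In this comparison 11 lay above 0, against 56% of all clusters, with a median of 0.16. Without the covariate none was called (0.506% of all clusters), 6 of 14 lay above 0 (59.5%) and the median was -0.03. The direction of the list thus turned. Pdlim5, a PDZ-LIM protein that binds alpha-actinin, gave 0.49 (SE 0.26), and 0.28 without the covariate. Fhl2 gave -0.30 (SE 0.25), the lowest of the 36, -0.51 without the covariate, and with the square of array SD -0.34 (adjusted p = 0.234) and there passed the unadjusted 0.01. The telethonin gene Tcap, which caps titin in the Z disc, gave 0.04 (SE 0.13), Ldb3, the cypher scaffold, 0.22 (SE 0.20), and Csrp3, the muscle LIM protein, 0.16 (SE 0.35). Without the covariate these 3 gave -0.13, 0.05 and -0.05. Nebl, nebulette, had 2 clusters, which gave -0.02 and 0.07 over both diets, and the first gave -0.18 without the covariate.

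With Des stand Cryab, the small heat shock protein that chaperones desmin, and Flnc, the filamin of muscle. Cryab gave 0.37 (SE 0.24) over both diets, 0.17 without the covariate, and with the square of array SD 0.33 (adjusted p = 0.169) and there passed the unadjusted 0.01. For DOXO against sham it gave 0.46 (SE 0.35), -0.51 without the covariate, and with the square 0.51 (adjusted p = 0.103), again past the unadjusted 0.01 only with the square among these 3 fits. In Flnc, DOXO replicate 5 read 10.85, against at most 7.36 in the other DOXO mice and 8.56 in sham replicate 2, the array nearest in spread. Xirp1, a Xin actin-binding repeat protein, read 11.73 in the same mouse, against at most 7.82 in the other DOXO mice and 8.64 in sham replicate 2. Over both diets Flnc gave 0.33 (SE 0.29) and Xirp1 0.36 (SE 0.32), and without the covariate 0.23 and 0.24. Without DOXO replicate 5 they gave 0.03 and 0.01. Xirp2 gave 0.22 (SE 0.14), and 0.0024 without the covariate.

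No costamere gene of 5 was called over both diets, where 2.01% of all clusters were higher and 0.814% lower. All 5 lay above 0, against 56% of all clusters, with a median of 0.07. Without the covariate 2 of 5 lay above 0 (59.5% of all clusters) and the median was -0.05, so that the direction of the list turned. Sgca, alpha-sarcoglycan of the dystrophin complex, gave 0.41 (SE 0.16, adjusted p = 0.281) for DOXO against sham, -0.40 without the covariate, and 0.27 (SE 0.11, adjusted p = 0.482) over both diets, 0.09 without. Dmd, dystrophin, read 6.50 to 8.72 in FA-DOXO mice (median 6.69) and 6.28 to 9.76 in DOXO mice (median 6.77), and gave 0.23 (SE 0.13) over both diets, and 0.08 without the covariate. Sgcb and Sgcd, further sarcoglycans, gave 0.07 (SE 0.11) and 0.07 (SE 0.13), and Dtna, dystrobrevin, 0.05 (SE 0.05). Without the covariate these 3 gave -0.095, -0.08 and -0.05. Cavin4, the current symbol of Murc in the annotation and a caveolar protein, gave 0.07 (SE 0.08), and -0.02 without the covariate.

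FA-DOXO was set against DOXO to ask whether FA alters these genes in doxorubicin-treated hearts. No gene of 36 passed an unadjusted p of 0.01, where 1.11% of all clusters did, and none passed 0.05, where 5.86% did. The difference lay above 0 for 23 genes (54.2% of all clusters), with a median of 0.14, against 0.01 over all clusters. Without the covariate 3 genes lay above 0 (58.1% of all clusters) and the median was -0.41. Within wide arrays the median was -0.65 and within narrow arrays -0.16. The sign for the list thus hung on the covariate. The largest difference was that of Myom2, 0.51 (SE 0.30), and -0.16 without the covariate. Des gave 0.36 (SE 0.29), Actn2 0.19 (SE 0.24), Ankrd1 0.34 (SE 0.55), Fhl1 -0.17 (SE 0.20) and Myot 0.09 (SE 0.14). Without the covariate these 5 gave -0.54, -0.67, -0.54, -0.70 and -0.30.

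FA-DOXO was set against FA-sham to ask what doxorubicin does under FA. No gene passed 0.01, where 1.07% of all clusters did, and 26 lay above 0 (43.9% of all clusters). The median was 0.12, against -0.02 over all clusters, and 0.59 without the covariate, with 34 genes above 0 (41.3% of all clusters). At an unadjusted p of 0.05, where 4.92% of all clusters passed, the count was 2, Des at 0.79 (SE 0.33, adjusted p = 0.978) and Myom2 at 0.73 (SE 0.34, adjusted p = 0.998). Ankrd1 gave 1.22 (SE 0.61), Actn2 0.43 (SE 0.27), Myot 0.16 (SE 0.16) and Fhl1 -0.01 (SE 0.23). Without the covariate Des gave 1.59, Myom2 1.32, Ankrd1 1.99, Actn2 1.18, Myot 0.51 and Fhl1 0.46. With the square of array SD, Des gave 0.68 (adjusted p = 0.647) and passed the unadjusted 0.01.

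FA-sham was set against sham to ask what FA does in healthy hearts. At an unadjusted p of 0.01, 3 genes were higher and none lower, where 1.65% of all clusters were higher: Fhl1 at 0.90 (SE 0.27, adjusted p = 0.516), Myot at 0.59 (SE 0.19, adjusted p = 0.516) and Dtna at 0.25 (SE 0.08, adjusted p = 0.536). All 3 reversed without the covariate, to -0.89, -0.76 and -0.89, and none of the 36 then passed 0.01, where 4.35% of all clusters did. Of 20 fits that each left out 1 mouse, the call was lost in 2 for Fhl1 (without sham replicate 1 or FA-sham replicate 3), 7 for Myot and 14 for Dtna. With the square of array SD, Sgcb also passed the unadjusted 0.01, at 0.51 (adjusted p = 0.366), and it gave -1.27 without the covariate. FA-sham read 6.59, 6.68, 6.65 and 7.60 for Dtna, against 7.43, 8.65, 8.45 and 6.56 in sham mice, so FA-sham was lower in the deposited signals while its arrays were narrower. The median over the 36 genes was 0.26, against 0.07 over all clusters, with 28 genes above 0 (67.8% of all clusters). It was -1.72 without the covariate, with 2 genes above 0 (62.5% of all clusters). With 3 wide sham arrays and 1 wide FA-sham array, diet and array spread are largely confounded here.

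The interaction, the doxorubicin difference under FA minus that under placebo, passed 0.01 for 1 gene of 36, Fhl1, which was lower, where 1.41% of all clusters were lower. It was -1.07 (SE 0.33, adjusted p = 0.535) with array SD and 0.20 without. The call was lost without sham replicate 1 (-0.99) or FA-sham replicate 3 (-0.93), and the value was -0.68 without DOXO replicate 5. The median interaction was -0.15, against -0.05 over all clusters, and 1.38 without the covariate. It lay above 0 for 14 genes (39.5% of all clusters), and without the covariate for 34 (38.8%).

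Beside these genes, 85 of 91 other genes of muscle structure were measured. For DOXO against sham 7 were higher and 2 lower at the unadjusted 0.01, where 3.14% of all clusters were higher and 1% lower. Over both diets 6 were higher and 2 lower, where 2.01% of all clusters were higher and 0.814% lower. Without the covariate 1 gene passed in each comparison. It was Lmod3, lower, for DOXO against sham, where 1.05% of all clusters passed. Over both diets it was Myh7, higher, where 0.506% did. Myh7, the slow beta-myosin heavy chain of the fetal ventricle, averaged 9.27 ± 1.65 in FA-DOXO mice (SD, n = 6) and 9.40 ± 1.98 in DOXO mice (SD, n = 6), against 7.21 ± 0.15 in FA-sham mice and 7.21 ± 0.17 in sham mice (SD, n = 4 each). Every doxorubicin mouse read at least 7.64, and the sham groups read at most 7.42, so the groups did not overlap, as held for 0.023% of all clusters. Its difference over both diets was 2.28 (adjusted p = 0.0203), and 2.12 without the covariate. Trim54, a muscle RING finger ligase of the sarcomere, gave 0.90 (adjusted p = 0.0444) for DOXO against sham, and 0.40 without the covariate. Trim63, its relative that marks sarcomere proteins for breakdown, gave 0.59 (adjusted p = 0.157), but -0.22 without the covariate. Lmod3, a leiomodin that nucleates thin filaments, gave -0.98 (adjusted p = 0.116), and -1.40 without the covariate. Hspb7, a cardiac small heat shock protein, gave 0.83 over both diets (adjusted p = 0.259), and 0.59 without the covariate. Markers of other cells differed in part between DOXO and sham mice. For DOXO against sham, 7 of 14 neutrophil markers and 3 of 12 macrophage markers were higher, 1 of 11 smooth muscle markers was lower, and 0 of 14 endothelial and 0 of 9 fibroblast markers passed the unadjusted 0.01 (limma), where 3.14% of all clusters were higher and 1% lower. Without the covariate 6 of 14 neutrophil markers passed, and 0 of the macrophage and 0 of the smooth muscle markers, where 1.05% of all clusters did. For FA-DOXO against FA-sham 0 of 14 neutrophil and 0 of 12 macrophage markers passed, where 1.07% of all clusters did. For FA-sham against sham, with no drug, 14 of 14 and 12 of 12 lay above 0 (67.8% of all clusters), and 13 and 2 without the covariate (62.5%). Their medians there were 0.24 and 0.12, against 0.23 and 0.13 for DOXO against sham. The mean neutrophil signal of an array ranged from 6.33 to 6.70 in FA-DOXO, 6.39 to 6.91 in DOXO, 6.22 to 6.45 in FA-sham and 5.67 to 6.39 in sham mice. Array medians lay between 6.23 and 6.66, so these markers were dim. On wide arrays the neutrophil mean was 6.91 in DOXO and 5.81 in sham mice, and on narrow arrays 6.48 and 6.39. The mean macrophage signal ranged from 6.74 to 7.58 in FA-DOXO, 6.72 to 7.63 in DOXO, 6.73 to 7.08 in FA-sham and 6.70 to 7.50 in sham mice. Their part in the differences of the muscle genes was not tested.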

How the data were processed

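RNA of the left ventricle of 20 mice was hybridized to 1 Affymetrix Mouse Gene 1.0 ST array each. The authors deposited log2 signals per transcript cluster, made with R 2.14.2 per the labels; the background correction, normalization and probe summary behind them were not given in the sources used here. Quantiles differ between arrays, so array spread enters every difference. Starting from these signals, limma 3.58.1 in R 4.3.3 fitted 1 mean per group plus array SD to all 34760 clusters, with no filter, moderated two-sided tests, an unadjusted threshold of 0.01 as in the study, and Benjamini-Hochberg adjustment at 0.05 over all clusters. In all, 6 comparisons were made. The number of arrays limits precision, and p-values rest on the spread between mice that is left once array SD is fitted. With 1 array per mouse this spread includes that between arrays. Of the clusters, 21640 had 1 gene symbol, 1321 several and 11799 none listed. Members and lists were chosen with earlier results of these data known. Genes named with full statistics are those past the unadjusted threshold in a comparison and the next by p, beside others of each role. Alternatives were no covariate, other measures of spread, wide or narrow arrays alone, quantile normalization, median centring, a filter on dim clusters, array weights, merged sham groups, a block for the replicate number and leaving out each mouse.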

Additional observations from a re-analysis of the deposited data

Results flagged for a closer look

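In groups of 4 to 6 mice, the gap of the highest or lowest mouse to the next was set against the range of its group by Dixon's criterion at 95%. Chance passes about 1 in 20 groups where the sets are independent. Of 144 sets (36 genes in 4 groups) 28 passed, in 26 genes, and they came from 4 mice. The 36 genes were read on the same arrays and most follow array SD, so the sets are not independent. The count of 28 therefore cannot be set against 1 in 20. FA-sham replicate 4, the wide array of its group, was far above the other FA-sham mice for 16 genes: Ttn 8.40, Mybpc3 9.03, Actn2 10.23, Tcap 8.72, Myom1 8.05, Ldb3 8.06, Nebl 8.36, Nexn 9.53, Des 10.23, Xirp2 8.55, Ankrd1 11.28, Dmd 7.19, Sgca 8.41, Sgcb 8.41, Sgcd 7.39 and Dtna 7.60. Sham replicate 4, the narrow array of its group, was far below the other sham mice for 6 genes: Tnnt2 10.78, Tnni3 11.73, Tnnc1 10.20, Tpm1 11.22, Myoz2 9.93 and Smpx 8.38. DOXO replicate 5, a wide array, was far above the other DOXO mice for Flnc 10.85, Mypn 9.40, Xirp1 11.73 and Synpo2l 7.90. FA-DOXO replicate 5, also wide, was far above for Flnc 8.15 and Mypn 7.72. The interaction of Fhl1 also stood out, at -1.07 with array SD, since the doxorubicin difference was -0.01 under FA and 1.06 under placebo. It was tested at an unadjusted p of 0.00429 and missed the adjusted threshold.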

How the results depend on the processing

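The counts of genes past the unadjusted 0.01 rested on array SD as a covariate. For DOXO against sham (4 genes) they were 0 with no covariate, with quantile normalization, within wide or narrow arrays alone and with the sham groups merged, and 1 with a block for wide or narrow arrays. Over both diets (6 genes) they were 0 with no covariate, quantile normalization or narrow arrays alone, and 1 with wide arrays alone. For FA-sham against sham (3 genes) they were 0 with no covariate, the interquartile range as the covariate, the wide and narrow block, wide or narrow arrays alone, quantile normalization or only the compared groups, and 1 with median centring. For the interaction (1 gene) they were 0 with no covariate, the interquartile range, the block, wide or narrow arrays alone, quantile normalization or the replicate block. For FA-DOXO against FA-sham (0 genes) they were 4 with merged sham groups and 1 with the square of array SD. Without the covariate the median was -1.72 for FA-sham against sham and 1.38 for the interaction. Leaving out 1 mouse gave counts of 3 to 5, 0 to 1, 0 to 2, 0 to 4, 3 to 7 and 0 to 2, and medians of 0.14 to 0.35, 0.03 to 0.22, 0.07 to 0.22, 0.15 to 0.31, 0.12 to 0.25 and -0.23 to 0.004 in turn, in the order DOXO over sham, FA-DOXO over DOXO, FA-DOXO over FA-sham, FA-sham over sham, both diets and interaction. Without FA-sham replicate 2 the count over both diets was 3, and without DOXO replicate 1 it was 7. For FA-DOXO over DOXO the count of 1 gene past the unadjusted 0.01 was seen without DOXO replicate 4. For FA-DOXO over FA-sham the count of 2 was seen without FA-sham replicate 4. The differences of Tnni2 and Pdlim3 for DOXO against sham were 0.18 and 0.35 without DOXO replicate 5.

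Directions turned as follows. With no covariate, DOXO against sham gave Actn2 -0.36, Des -0.21, Smyd2 -0.23, Trim63 -0.22 and Pdlim1 -0.025, FA-sham against sham gave Myot -0.76, Fhl1 -0.89 and Dtna -0.89, and the interaction of Fhl1 was 0.20. With quantile normalization, Myot gave -0.49, Fhl1 -0.37 and Dtna -0.61 for FA-sham against sham, and Smyd2 -0.14 and Trim63 -0.062 for DOXO against sham. Within wide arrays, FA-sham against sham gave Myot -0.20, Fhl1 -0.40 and Dtna -0.57. Within narrow arrays, it gave Myot -0.16, and Tpm4 gave 0.16 for DOXO against sham and 0.11 over both diets. With the wide and narrow block, Dtna gave -0.17 for FA-sham against sham. Of 432 alternative values for named genes 241 kept their call, 170 lost it and 21 turned, and of 620 with 1 mouse left out 540 kept it and 80 lost it.

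Same-numbered mice deviated together in 8 of 18 pairs (correlation over 0.1, range -0.86 to 0.84). The highest was that of DOXO and FA-DOXO replicate 5, both wide arrays. The lowest was that of FA-sham replicate 4, wide, and sham replicate 4, narrow. Since most of these genes follow array SD, the correlations cannot show whether the numbers pair the mice. With the replicate block the counts were 5, 0, 0, 4, 4 and 0. With no counts behind the signals, depth is unknown, and the narrow arrays held many of these genes near the array median, where a fall cannot be measured.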
